A study of Arabidopsis thaliana with 2 samples.

Results

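The late embryogenesis abundant (LEA) genes other than dehydrins were examined in whole seedlings of Arabidopsis thaliana. The members are 42 gene IDs of the LEA family, given as a fixed list of loci, out of 33557 genes in each deposited table. They comprise 3 genes of group LEA_1, 3 of LEA_2, 4 of LEA_3, 18 of LEA_4, 2 of LEA_5, 3 of PvLEA18, 6 of SMP (seed maturation protein), 2 of AtM, and AT5G60530, which carries a LEA-like annotation and was placed in no group. Messenger RNA was sequenced from Col-0 seedlings with the arp6-1 mutation, which hits a subunit of the SWR1 complex that loads the histone variant H2A.Z. The seedlings were 10 days old, had grown in long days at 17 °C and were collected at the 15 min time point of a shift started at zeitgeber time 1 h, in the arm kept at 17 °C. There is 1 group with 2 libraries, replicate 1 and replicate 2. No wild type, other temperature or other time was analysed here, so the data give levels within this group and differences between its duplicates, not an effect of the mutation or of temperature.

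LEA proteins are hydrophilic, mostly disordered proteins that gather late in seed maturation, when the embryo dries. Many LEA genes are also switched on in leaves and roots by drought, cold, salt or the hormone abscisic acid. Their promoters often carry the abscisic acid response element (ABRE), bound by ABF and ABI5 factors, and the dehydration response element (DRE), bound by CBF and DREB factors. In seedlings that are well watered most seed-type LEA genes are held silent, while a few members with household or stress roles stay on.

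The depth was 20249142 and 12410991 counts in replicates 1 and 2, so that a count of 0 allows up to 0.148 and 0.242 CPM (counts scaled to library size; 3 counts of the total). The labels give the same protocol text, naming a stranded and an unstranded kit and 2 sequencing centres, for both libraries, and name no separate cultures for the replicates, so the spread between them may be technical. Kit, centre and plant material therefore cannot be told apart from the replicate, and in whole seedlings fewer cells of a type and less RNA per cell cannot be told apart. Leaf photosynthesis markers were high and near equal, with summed levels of 11096 and 11683 TPM (transcript abundance corrected for gene length and depth) for RBCS1A, RCA and LHCB1.3. Chloroplast-encoded genes held 0.777% and 0.179% of the counts.

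The LEA transcripts as a group took 0.149% of all TPM in replicate 1 and 1.00% in replicate 2. In replicate 1 their summed level was 1492 TPM, and 6 members supplied 89.8% of it: SAG21, LEA3, AT2G23120, AT2G44060, LEA14 and DI21. In replicate 2 the sum was 10005 TPM, and the 5 highest members were AT3G02480, COR15A, SAG21, LEA7 and LEA4-5, with 65.4% of it. SAG21 was in the leading set of both libraries, while AT3G02480, COR15A, LEA7 and LEA4-5 led only in replicate 2. The number of members at 100 TPM or more was 6 in replicate 1 and 13 in replicate 2, and 23 and 11 members were under 1 TPM. Of all 33557 genes 2060 and 2199 were at 100 TPM or more, and 13599 and 13895 were under 1 TPM. The median member stood at 0.523 and 6.62 TPM, against 3.62 and 3.33 TPM over all genes in the tables.

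**Figure D1:**
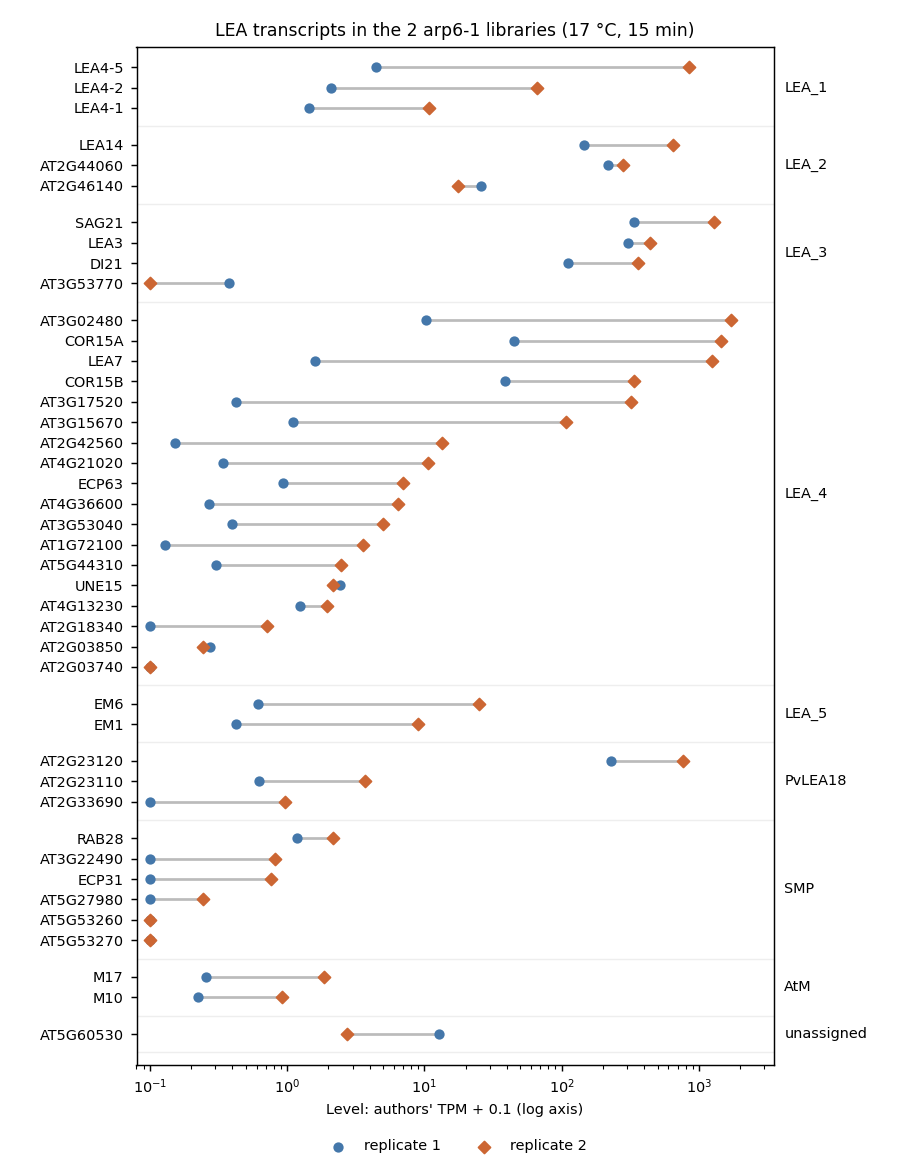
Level of each of the 42 LEA members in replicate 1 (circles) and replicate 2 (diamonds), as the authors' TPM + 0.1 on a log axis, by LEA group. Members of LEA_1, LEA_4 and LEA_5 span the longest distances between the libraries. LEA14, AT2G44060, SAG21, LEA3, DI21 and AT2G23120 are above 100 TPM in both, and AT5G60530 is lower in replicate 2.

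Differences between the duplicates were measured on raw counts scaled by TMM, as the log2 difference of replicate 2 minus replicate 1 with a prior count of 2, in genes with at least 20 counts over both libraries. With 1 library on each side no test of a condition exists, and a gene is called by its fold alone. Of the 42 members 31 reached 20 counts, and 24 of these were at least 2-fold higher in replicate 2, against 9.26% of the 20568 genes measured this way. A single member, AT5G60530, was at least 2-fold lower, against 10.4% of all genes, and 6 lay between. At least 8-fold higher were 16 of the 31, against 1.32% of all genes, and at least 8-fold lower 0 of the 31, against 0.331%. The median log2 difference of the 31 was 3.16, an 8.91-fold ratio, and that of all measured genes was -0.03. The members were chosen with earlier results of these libraries known, so these counts are not independent evidence of a direction. Among the 31, 10 had under 10 counts in replicate 1 and reached the minimum through replicate 2, so they could hardly have been anything but higher. With at least 10 counts asked of both libraries, 21 members remained, and their median was 2.11. Of the 21, 14 were at least 2-fold higher, 1 at least 2-fold lower and 8 at least 8-fold higher. The shares over 19519 genes were 8.76%, 8.24% and 0.871%. Ratios below are of scaled counts with 95% Clopper-Pearson intervals, which cover counting error only and compare these libraries, not conditions. They hold no prior count, so that LEA4-1, ECP63 and M17 have ratios above 8 but log2 differences under 3.

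**Figure D2:**
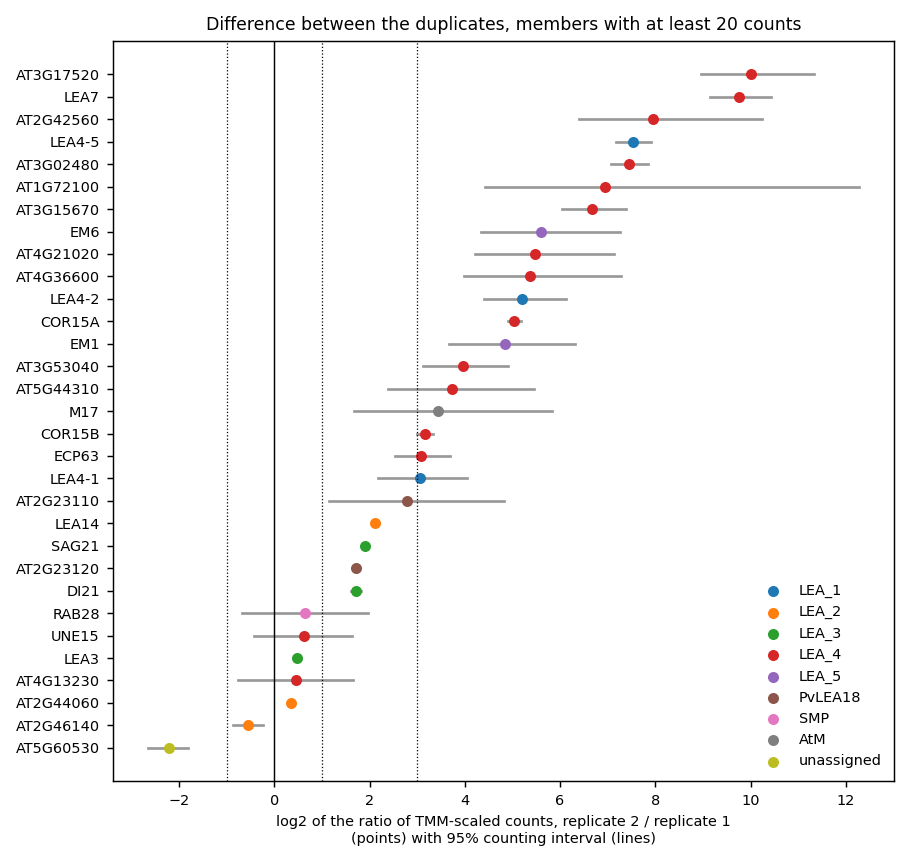
Ratio of scaled counts, replicate 2 over replicate 1, on a log2 axis for the 31 members with at least 20 counts (points, coloured by LEA group), with 95% counting intervals (lines). Dotted lines mark 2-fold lower, 2-fold higher and 8-fold higher; the members run from AT5G60530 at 0.215-fold to AT3G17520 at 1028-fold.

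LEA_4, the group built on repeats of a short amphipathic motif, held LEA7 and AT3G17520, the members with the largest differences. As a group it was close to LEA_1 and LEA_5. The median log2 difference was 4.95 in LEA_1 (3 genes), 4.90 in LEA_4 and 4.69 in LEA_5 (2 genes). Of the 18 LEA_4 genes 15 reached 20 counts. In replicate 2, 13 were at least 2-fold and 12 at least 8-fold higher, against 9.26% and 1.32% of all measured genes. Of the 15, 6 had under 10 counts in replicate 1 and passed the minimum through replicate 2, among them AT3G17520. LEA7 (AT1G52690, chromosome 1, 19619745 to 19621534 in TAIR10) had 22 and 11062 counts, or 1.49 and 1248 TPM in replicates 1 and 2. It ranked 19193 among all genes in replicate 1 and 47 in replicate 2, a ratio of 862 (interval 569 to 1376). Its span overlaps AT1G52695 in the files, so its counts are uncertain.

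AT3G02480, a short LEA_4 gene on chromosome 3 (512312 to 513027), had 60 and 6096 counts. Its level of 10.2 TPM in replicate 1 stood against 1705 TPM in replicate 2, the highest of all members and rank 17 of all genes there (174-fold, 135 to 228). AT3G17520 (chromosome 3, 5999289 to 6000370) had 7 and 4198 counts, 0.326 and 323 TPM, and the largest ratio of the members, 1028 with an interval of 498 to 2558. AT3G15670, whose coding sequence is 59.9% identical to that of LEA7, had 20 and 1186 counts, 1.00 and 107 TPM (102-fold, 65.5 to 167). These genes were near silent or low in replicate 1 and among the abundant LEA transcripts in replicate 2.

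The cold-regulated pair COR15A and COR15B, chloroplast proteins that protect membranes in freezing, also belongs to LEA_4. COR15A (AT2G42540, chromosome 2, 17711032 to 17712330) had 483 and 9259 counts, 45.2 and 1457 TPM, a ratio of 32.9 (30.0 to 36.1). COR15B (AT2G42530, 17709036 to 17709945 on the same chromosome) had 348 and 1821 counts, 38.8 and 336 TPM, a ratio of 8.97 (7.99 to 10.09). COR15A was thus 1.16 times COR15B in replicate 1 and 4.33 times in replicate 2, and the intervals of their ratios do not meet. Their coding sequences were 82.6% identical, and how the authors' counting split reads between them is not given in the sources used here. With the longer gene models of TAIR10.1 the computed levels were 25.4 and 812 TPM for COR15A and 18.3 and 160 TPM for COR15B.

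The other LEA_4 members that reached 20 counts were low in both libraries. AT2G42560 had 3 and 433 counts, 0.0537 and 13.3 TPM (247-fold, 84.1 to 1204). AT1G72100 had 1 and 72 counts, 0.0295 and 3.49 TPM (123-fold, 21.5 to 4941), so its ratio is known only to a wide range. AT4G21020, AT4G36600, AT3G53040 and AT5G44310 had 4 to 13 counts in replicate 1 and 39 to 130 in replicate 2, with ratios between 13.4 and 44.6. ECP63, an embryonic cell protein gene, had 31 and 154 counts, 0.842 and 6.91 TPM (8.51-fold, 5.76 to 13.0). AT4G13230, with 15 and 12 counts, and UNE15, named for a mutant with unfertilized embryo sacs, with 19 and 17 counts, had intervals that include 1 (0.586 to 3.14 and 0.749 to 3.12). All of these except AT4G13230 and UNE15 were higher in replicate 2 by intervals that leave out 1.

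The 3 LEA_1 genes, hydrophilic proteins known to shield enzymes against drying in vitro, were all at least 2-fold higher in replicate 2. Of all measured genes 9.26% were. LEA4-5 (AT5G06760, chromosome 5, 2089492 to 2090430) had 64 and 6900 counts, 4.31 and 842 TPM, a ratio of 185 (145 to 240.2). LEA4-2 (AT2G35300) had 13 and 279 counts, 1.99 and 65.7 TPM (36.8-fold, 21.2 to 70.0). LEA4-1 (AT1G32560) had 13 and 63 counts, 1.34 and 10.7 TPM (8.31-fold, 4.52 to 16.5). The level order LEA4-5, LEA4-2, LEA4-1 was the same in both libraries, although the last pair had equal counts in replicate 1, and LEA4-5 stood 3.23 times above LEA4-1 in replicate 1 and 78.8 times above it in replicate 2.

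The LEA_5 pair EM6 and EM1, proteins of the dry seed, was near the limit of detection in replicate 1. EM6 (AT2G40170) had 5 and 142 counts, 0.519 and 25.0 TPM (48.7-fold, 20.4 to 152). EM1 (AT3G51810) had 6 and 100 counts, 0.325 and 8.90 TPM (28.6-fold, 12.7 to 79.7). Both reached 20 counts through replicate 2, and even there they ranked far below LEA7 and AT3G02480.

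The LEA_2 genes encode folded proteins, unlike the rest of the family, and were already transcribed in replicate 1. LEA14 (AT1G01470, chromosome 1, 172146 to 172948) had 1618 and 4071 counts, 146 and 653 TPM (4.31-fold, 4.07 to 4.57). AT2G44060 had 4887 and 3647 counts, 218 and 281 TPM, a mean of 249 ± 44.6 TPM (SD, n = 2), and a ratio of 1.28 (1.23 to 1.34). AT2G46140 had 289 and 115 counts, 25.8 and 17.4 TPM, a mean of 21.6 ± 5.96 TPM (SD, n = 2), and a ratio of 0.682 (0.545 to 0.849). Within this group 1 gene was over 2-fold higher, against 9.26% of all measured genes. The other members of the group differed by less than 2-fold in opposite directions.

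Of the LEA_3 genes, small proteins of which SAG21 is a mitochondrial one tied to senescence and oxidative stress, 3 were among the most abundant members in replicate 1. SAG21 (AT4G02380, chromosome 4, 1046204 to 1046997) had 2884 and 6320 counts, 336 and 1294 TPM (3.76-fold, 3.59 to 3.93). DI21 (AT4G15910), named as drought-induced, had 945 and 1811 counts, 110 and 361 TPM (3.28-fold, 3.03 to 3.56). LEA3 (AT1G02820) had 2244 and 1818 counts, 302 and 437 TPM, a mean of 370 ± 95.3 TPM (SD, n = 2), and a ratio of 1.39 (1.305 to 1.478). AT3G53770 had 1 count in replicate 1 and 0 in replicate 2.

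PvLEA18, a group of very small proteins, was represented mainly by AT2G23120, with 1661 and 3196 counts, 227 and 768 TPM (3.30-fold, 3.11 to 3.50). Its neighbour AT2G23110, 676 bases away on chromosome 2, had 4 and 16 counts, 0.528 and 3.57 TPM (6.86-fold, 2.21 to 28.2). AT2G33690 had 0 and 2 counts. Adjacent members of this group thus stood far apart in both libraries, at TPM ratios of 431 and 215.

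The seed-linked groups SMP and AtM were close to absent. RAB28, a seed gene responsive to abscisic acid, had 12 and 11 counts, a mean of 1.58 ± 0.696 TPM (SD, n = 2), with an interval of its ratio from 0.628 to 3.89. AT3G22490 and ECP31, a pair 781 bases apart on chromosome 3 with coding sequences 83.3% identical, had 0 counts in replicate 1 and 8 and 10 in replicate 2, at least 4.57-fold and 5.71-fold higher against a floor of 3 counts per library. AT3G22490 overlaps another gene in the files. AT5G27980 had 2 and 1 counts, and AT5G53260 and AT5G53270 had 0 in both libraries. M17 had 3 and 19 counts, 0.155 and 1.76 TPM (10.9-fold, 3.20 to 57.3), and M10 1 and 4 counts. In LEA_4, AT2G03740 had 0 counts in both libraries, AT2G03850 had 2 and 2, and AT2G18340, which overlaps another gene, had 0 and 11, at least 6.28-fold higher. Together with AT3G53770, AT2G33690 and M10 these SMP and LEA_4 genes, without RAB28, are the 11 members under 20 counts.

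AT5G60530 was the exception in direction. It had 438 and 55 counts, 12.6 and 2.62 TPM, 4.65-fold lower in replicate 2 (3.50 to 6.27). Root markers were lower there as well, with summed levels of 134 and 76.9 TPM and none at 0 counts. Of the 6, 3 were at least 2-fold lower and 0 at least 2-fold higher, against 10.4% and 9.26% of all measured genes. PIN2, the auxin carrier of root epidermis, had 19.3 and 6.95 TPM, and SCR, of root endodermis, had 58.3 and 48.1 TPM. The part of root content in the level of AT5G60530 was not tested.

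Members that were low in replicate 1 had the larger differences, a description in which both quantities share the counts of replicate 1. The 6 members at 100 TPM or more in replicate 1 had log2 differences from 0.35 to 2.11 (median 1.72). The 20 measured members under 10 TPM had differences from 0.40 to 9.59 (median 4.52). Of these 20, 10 had under 10 counts in replicate 1 and were measured only because replicate 2 was high. The minimum of 20 counts thus fixes part of this pattern. AT2G46140, COR15B, COR15A, AT3G02480 and AT5G60530 lay between 10 and 100 TPM and ran from -2.19 to 7.38.

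Some members lie side by side, and the genes that flank them did not share their differences. On chromosome 2, COR15B, COR15A and AT2G42560 lie within 17709036 to 17716912, and their log2 differences were 3.16, 5.03 and 7.07. The gene between COR15A and AT2G42560, AT2G42550, had 0 counts in both libraries. The genes that flank the run, AT2G42520 and TBL39, differed by -0.03 and -0.50. Around AT2G23110 and AT2G23120 the flanking genes AT2G23100 and AGP17 differed by -0.48 and -2.20.

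Promoter sequence was read from TAIR10.1 to see which motif cores the members hold near their starts. The 250 bases before the annotated start are printed for the 5 members with the highest level in replicate 2, 5′ to 3′ on the strand of the gene, with capitals marking the ABRE core ACGTG, the DRE core CCGAC and the RY core CATGCA on either strand. CACGTG, the G-box, holds the ABRE core on both strands and counts as 1 site. LEA7 and LEA4-5 show several ABRE cores, COR15A a G-box and 2 DRE cores, and SAG21 none of these. Of the 5 only SAG21 was above 100 TPM in both libraries. Among the other members above 100 TPM in both, LEA14 and DI21 held ABRE cores in these 250 bases. AT2G44060, LEA3 and AT2G23120 did not.
AT3G02480: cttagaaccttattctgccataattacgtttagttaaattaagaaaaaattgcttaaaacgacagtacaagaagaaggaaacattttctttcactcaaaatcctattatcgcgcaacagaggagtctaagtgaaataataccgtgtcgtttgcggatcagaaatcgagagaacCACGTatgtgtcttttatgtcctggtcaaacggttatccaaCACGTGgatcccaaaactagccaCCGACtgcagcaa
COR15A: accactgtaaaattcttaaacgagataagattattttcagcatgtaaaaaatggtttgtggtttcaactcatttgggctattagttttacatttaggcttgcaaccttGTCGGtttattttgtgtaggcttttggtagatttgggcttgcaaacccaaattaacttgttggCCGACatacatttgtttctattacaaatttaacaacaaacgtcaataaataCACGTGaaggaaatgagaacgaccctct
SAG21: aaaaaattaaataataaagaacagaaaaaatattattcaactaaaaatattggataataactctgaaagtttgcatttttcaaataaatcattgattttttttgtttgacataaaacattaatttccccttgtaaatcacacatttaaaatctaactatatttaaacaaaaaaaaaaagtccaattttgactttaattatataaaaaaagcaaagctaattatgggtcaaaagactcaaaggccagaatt
LEA7: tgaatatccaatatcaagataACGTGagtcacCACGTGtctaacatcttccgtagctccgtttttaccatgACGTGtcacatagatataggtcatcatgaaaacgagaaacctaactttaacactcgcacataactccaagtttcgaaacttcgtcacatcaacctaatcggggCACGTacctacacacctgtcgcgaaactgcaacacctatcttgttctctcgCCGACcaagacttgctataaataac
LEA4-5: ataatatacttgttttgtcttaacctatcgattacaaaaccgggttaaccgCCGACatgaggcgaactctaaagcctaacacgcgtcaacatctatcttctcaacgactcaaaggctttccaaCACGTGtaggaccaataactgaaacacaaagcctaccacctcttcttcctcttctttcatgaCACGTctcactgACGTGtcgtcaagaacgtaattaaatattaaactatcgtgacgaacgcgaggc
In TAIR10.1 these windows are chr3:511970-512219 for AT3G02480, chr2:17712331-17712580 (minus strand) for COR15A, chr4:1047106-1047355 (minus strand) for SAG21, chr1:19619474-19619723 for LEA7 and chr5:2090431-2090680 (minus strand) for LEA4-5. The printed bases hold 4 distinct ABRE core sites in LEA7, 3 in LEA4-5, 2 in AT3G02480, 1 in COR15A and 0 in SAG21.

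Over 250 bases before to 50 after the start, 29 of 42 members (69.0%) held the ABRE core on either strand, against 26.7% of 27443 promoters of protein-coding nuclear genes. The longer forms ACGTGGC or ACGTGTC were in 25 members (59.5%), against 7.64% of promoters, and the DRE core in 19 (45.2%), against 15.0%. The RY core, a seed motif, was in 7 members (16.7%), against 9.72%. By size of the difference, the ABRE core was in 15 of the 16 members at least 8-fold higher in replicate 2, in 5 of the 8 that were 2-fold to 8-fold higher, in 2 of the 7 others that were measured and in 7 of the 11 under 20 counts. Only 8 of the 16 had at least 10 counts in both libraries, and the others passed the minimum through replicate 2. Members as low in replicate 1 that were not higher in replicate 2 fall in the class under 20 counts. The member at least 8-fold higher with no ABRE core in the window was COR15B. Its start lies 488 bases further upstream in TAIR10.1 than in the files, and in the 500 bases before its start codon it held 2 ABRE core sites and 1 DRE core site.

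The annotated starts limit this reading. For 17 of the 42 members the start in TAIR10.1 lay over 50 bases from that in the files, and these 17 include all 7 measured members that were not at least 2-fold higher. In the 25 with a start within 50 bases, the ABRE core was in 11 of 11 members at least 8-fold higher, 4 of 4 that were 2-fold to 8-fold higher and 7 of 10 under 20 counts. In a window of 500 bases before the start codon it was in 16 of 16, 5 of 8, 3 of 7 and 9 of 11 members of the same classes, against 34.8% of all genes. SAG21, LEA3, DI21, AT4G13230, UNE15, M17 and AT5G60530 were among those without it there. A match is a run of letters and shows no binding.

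**Figure D3:**
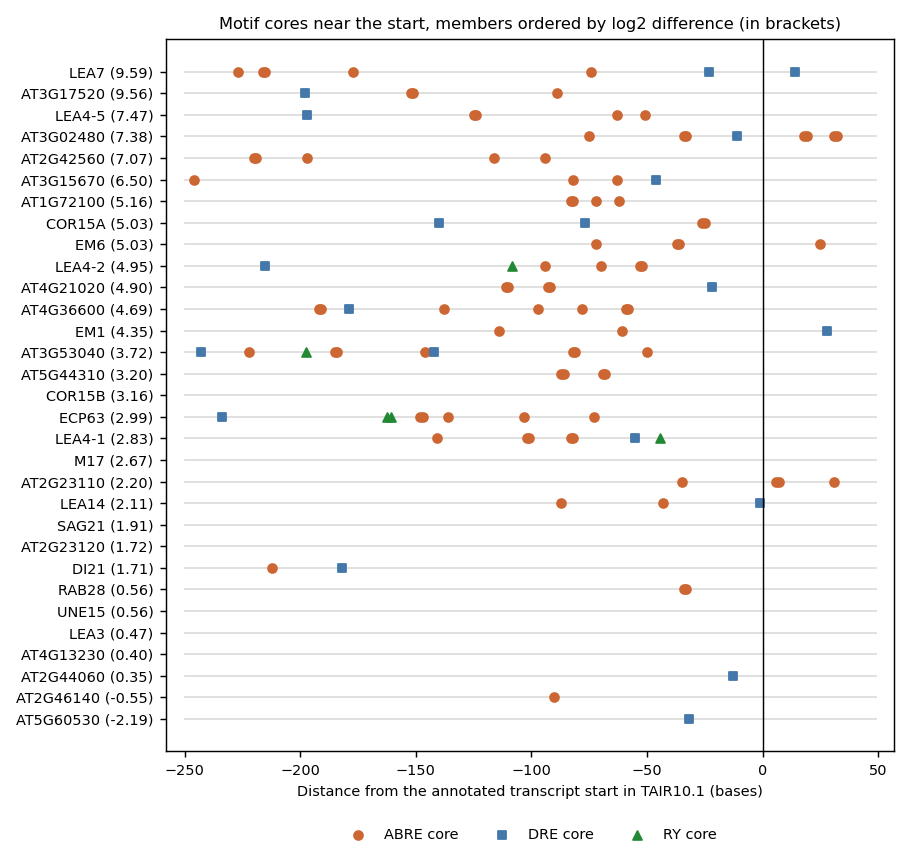
Positions of the ABRE, DRE and RY cores from 250 bases before to 50 after the TAIR10.1 start (x axis, bases) in the 31 members with at least 20 counts, ordered by log2 difference (in brackets). ABRE cores fill the upper rows, from LEA7 at 9.59 down to LEA4-1 at 2.83 with COR15B as the gap, and are sparse below LEA14 at 2.11.

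Upstream of the LEA genes, 21 known regulators were followed. Of the 14 with 20 counts, 6 were at least 2-fold higher in replicate 2 and 0 at least 8-fold higher. At least 2-fold lower were 0, and the shares over all measured genes were 9.26%, 1.32% and 10.4%. The median log2 difference of the 14 was 0.87. ABI5, the bZIP factor that drives EM1 and EM6 in seeds, had 11 and 58 counts, 0.271 and 2.47 TPM (9.04-fold, a log2 difference of 2.91 with the prior count). ABF2, which binds the ABRE in vegetative tissue, had 27.3 and 142 TPM (5.24-fold), ABF4, whose span overlaps another gene, 20.6 and 67.9 TPM (3.45-fold) and ABF3 65.3 and 191 TPM (2.98-fold). The other measured bZIP factors of the list, ABF1, AREB3 and EEL, were 1.81-fold, 1.32-fold and 0.914-fold. ABF1 also overlaps another gene. Of the DRE-binding factors, CBF1 was 2.30-fold and DREB2A 2.72-fold higher, while CBF2, CBF3 and CBF4 were 1.31-fold, 1.90-fold and 1.35-fold. The seed master regulators were at or near 0, with 0 counts in both libraries for LEC1, LEC2, ABI4 and BZIP67, 0 and 1 for FUS3, and 10 and 0 for ABI3. VAL1 and VAL2, repressors of the seed programme, differed by -0.02 and 0.32 on the log2 scale.

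Genes of the abscisic acid and dehydration response outside the members and the dehydrins were all at least 2-fold higher in replicate 2, 23 of 23. At least 8-fold higher were 18, and the median log2 difference was 4.62. Of all measured genes 9.26% were at least 2-fold and 1.32% at least 8-fold higher. Of the 23, LTP4 and HAI2 passed the minimum through replicate 2 alone. LTP4, a lipid transfer protein, had 2 and 2951 counts (2529-fold, 699 to 20892), RD29B 84 and 19946 counts (407-fold), HAI2, a protein phosphatase of the abscisic acid pathway, 2 and 571 counts (489-fold, 135 to 4050.3) and TSPO 33 and 3635 counts (189-fold). ABF3 is in this list and in that of the regulators. Earlier results of these libraries were known when the members and the gene lists were chosen, so none of them is independent evidence of a direction. Dehydrins, the LEA group left out of the members, had 9 of 10 genes with 20 counts, with a median of 2.25. Of the 9, 7 were at least 2-fold higher, 3 at least 8-fold higher and 0 at least 2-fold lower. For all measured genes the shares were 9.26%, 1.32% and 10.4%. Of the 3 at least 8-fold higher, XERO1 (1 and 131 counts) and AT2G21490 (0 and 24 counts) passed the minimum through replicate 2 alone. RAB18 (2.13 and 1364 TPM) and XERO1 (0.107 and 23.1 TPM) differed most there, and HIRD11 (532 and 630 TPM) was near equal. AT4G38410 had 41 and 17 counts (0.711-fold, 0.379 to 1.28). The difference between dehydrins and the other LEA groups was not tested.

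**Figure D4:**
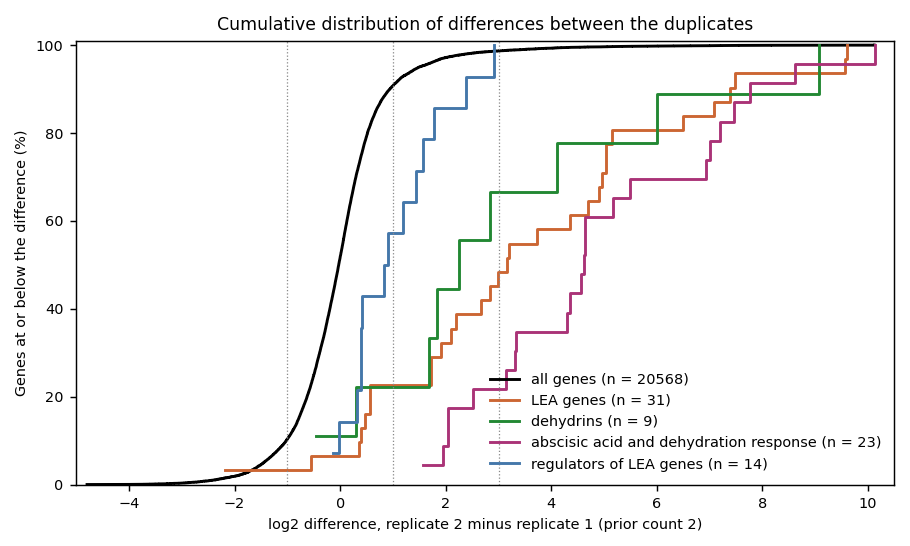
Cumulative share of genes (y axis, percent) at or below each log2 difference between the duplicates (x axis, replicate 2 minus replicate 1) for all measured genes, LEA members, dehydrins, abscisic acid and dehydration response genes, and regulators. The curve of all genes is centred at -0.03, and the medians of the LEA members, dehydrins, response genes and regulators are 3.16, 2.25, 4.62 and 0.87.

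Seed storage and oil body genes, which maturing seeds transcribe together with the LEA genes, were looked at beside the members. Of 17 such genes 6 reached 20 counts, and the summed level of the 17 was 9.84 and 27.4 TPM. Of the 6, 4 were at least 2-fold higher, 3 at least 8-fold higher and 0 at least 2-fold lower. Over all measured genes these shares were 9.26%, 1.32% and 10.4%. The 4 higher ones passed the minimum through replicate 2 alone, so that their direction follows from it: the oleosin OLEO2 (2 and 40 counts), the peroxiredoxin PER1 (3 and 41 counts), and the vacuolar aquaporins TIP3-1 (5 and 27 counts) and TIP3-2 (1 and 37 counts), the last of which overlaps another gene in the files. The others measured were the oleosins OLEO3, with 27 and 31 counts (1.97-fold), and OLEO4, with 81 and 30 counts (0.635-fold, 0.403 to 0.976). The cruciferin genes CRA1, CRU2 and CRU3 had 0 to 1 counts in each library, and the albumins SESA1 to SESA5 had 0 to 3. Seed storage transcripts, the most abundant of a dry seed, were thus at or near 0 in both libraries. Of 5 pollen markers VGD1, PPME1 and DUO1 had 0 counts in both libraries, VGDH1 had 1 and 0, and HAP2 had 19 and 2, with a summed level of 0.514 and 0 TPM.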

How the data were processed

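RNA-seq of 2 libraries of 1 group was used. The raw counts per gene were deposited without normalization, per the file headers, and the deposited FPKM and TPM are the authors' length- and depth-corrected values, TPM being FPKM times a constant in each library (1.21 and 1.27). Per the submitters' processing notes, TopHat, Trimmomatic, FastQC and Picard were used with build TAIR10, with no versions. How reads were counted, and with which strand setting, is not given in the sources used here. Levels are the authors' TPM. Counts were scaled by TMM (edgeR 4.0.16, R 4.3.3; factors 1.02 and 0.976 over genes with 10 counts in both libraries). A log2 difference has a prior count of 2, needs 20 counts over both libraries, and is called at 2-fold or 8-fold. No p-value is given, since each side has 1 library. Ratios carry 95% Clopper-Pearson intervals (scipy 1.17.1). Scripts were tested on simulated data. File coordinates were made 1-based. All 42 members matched the RefSeq table of TAIR10.1, from which promoters, exon lengths and coding sequences come, and coding identity is from global alignment (Biopython 1.88). Protein sequences were not used here. Members described singly have 20 counts or more, and the rest are given by counts. Genes of other lists are those with the largest differences or with 0 counts, and further ones were added after their values were seen. The members and the lists were chosen with earlier results of these data known.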

Additional observations from a re-analysis of the deposited data

How the results depend on the processing

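The calls at 2-fold and 8-fold were repeated with DESeq2 1.42.0 size factors, total counts, a prior count of 0.5, the authors' TPM + 1, other minimums and, added after the data were seen, replicate 1 thinned to the depth of replicate 2. No called member changed direction under the scalings, the prior count, TPM or thinning. With thinning AT4G13230 crossed 2-fold. Asking 10 counts of both libraries left 14 members at least 2-fold and 8 at least 8-fold higher, with a median of 2.11. Over all genes kept by that minimum the shares were 8.76% and 0.871%. The members' median was 4.35 with at least 100 counts over both libraries and 2.15 with the authors' TPM + 1. With the latter 11 members were at least 8-fold higher, against 0.890% of all measured genes. The pseudocount and the minimums act on members low in replicate 1. The members' mean share of all TPM, 0.575%, was 0.149% and 1.00% in the single libraries. The ABRE core counts were 29 with the bases before the start only, 33 before the start codon and 25 with the longer forms. Computed TPM moved the level of 3 members by more than their spread, and by over 1.5 times in 11 members, most for UNE15 (2.34 and 2.05 against 0.381 and 0.569). No paired analysis was possible because there is 1 group. Depth limits the members under 20 counts, and 2 libraries give only a rough estimate of the spread within the group.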
